A study of Mus musculus with 12 samples.

Results

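The diet by genotype interaction asks whether losing Pld1 does the same thing to a liver on normal chow as it does on a high-fat diet (HFD). It was computed for each gene as the log2 knockout effect on HFD (KO against control) minus the log2 knockout effect on chow, so a positive value means that the ratio of KO to control was higher on HFD. All 12 of the 12 libraries of the series enter it, 3 from each of 4 groups. The groups were livers of control mice (Pld1-Flox, with the genotype label WT) on chow, livers of such controls on HFD, livers of hepatocyte-specific Pld1 knockout mice (KO, called a knockdown in their genotype label) on chow, and KO livers on HFD. HFD was given for 20 weeks, per the series description; the driver of the Cre recombinase, the age of the mice and any pooling of animals are not stated in the labels. Of 14778 genes tested, 4411 passed the interaction threshold, a Benjamini-Hochberg adjusted p below 0.05 in the quasi-likelihood test of edgeR, and 1622 of these also had an interaction of at least 1.5-fold. These 1622 genes were then sorted by which of the 4 groups stood apart from the other three.

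Phospholipase D1 cleaves phosphatidylcholine into choline and phosphatidic acid, a signalling lipid and a precursor of diacylglycerol and stored fat. A high-fat diet loads hepatocytes with lipid droplets and, over weeks, can bring in inflammatory cells, activate collagen-making stellate cells and lower genes that growth hormone keeps high in the male liver. An interaction can arise when the diet moves a gene in only 1 genotype, when the knockout moves it on only 1 diet, or when both act on both and do not add up, and the level in all 4 groups is needed to tell these apart.

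Depth was even, at 18215008 to 22378180 counts per library. Libraries of a group differed little, with a common biological coefficient of variation of 3.948%, and the labels do not say that they came from separate animals. Every p-value given here thus weighs a difference against the spread of these libraries, possibly a technical one, and any factor that differs between whole groups cannot be told apart from genotype and diet. With a coefficient of variation fixed at 20% instead, 510 genes passed, and with 40%, 22 did; genes named here that no longer pass at 20% are pointed out as resting on the small spread. The targeted gene, Pld1 (ENSMUSG00000027695), was measured at 11.3, 11.2 and 9.07 CPM in chow-fed controls and 7.72, 6.48 and 7.19 in HFD-fed controls. KO livers had 3.95, 3.45 and 4.67 CPM on chow and 2.91, 1.93 and 2.94 on HFD. Each KO library was below each control library on the same diet, and the knockout effect was close in size on both diets (-1.39 on chow and -1.45 on HFD), with an interaction of -0.05 (SE 0.22, adjusted p = 0.881). Pparg, the nuclear receptor of lipid storage named in the study's title, had knockout effects of -0.52 on chow and -0.60 on HFD and an interaction of -0.08 (SE 0.12, adjusted p = 0.66), and neither gene passed the interaction test. Levels of hepatocyte markers summed to 94200 to 95240 CPM (counts scaled to a common library size) in the 6 control libraries, 90300 to 91420 in KO on chow and 102100 to 105100 in KO on HFD, while muscle markers summed to at most 1.257 CPM.

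The interaction ran in both directions. Among all tested genes 29.8% passed the threshold, 15.2% with a positive and 14.7% with a negative interaction, and the median interaction over all tested genes was -0.0037. At 1.5-fold 11.0% passed, and here negative values were the more common, at 7.32% of tested genes (1082) against 3.65% positive (540). Positive genes had shorter transcripts, with a median of 1028 bases in 2241 genes against 1661 bases in 2170 negative genes and 1368 bases in all tested genes. The share of calls that were positive was 50.8%, and it was 64.59% when a smooth trend of the counts on transcript length and GC content was removed. With that trend removed the median interaction over all tested genes was 0.066, so values as a whole lay slightly higher in that setting. The part of transcript length in these results was not otherwise tested.

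The knockout effects behind the 1622 interactions were of several kinds. The knockout effect passed its own test on chow alone in 613 genes and on HFD alone in 373. In 387 genes it passed on both diets in opposite directions, and in 104 of these it was at least 1.5-fold each way. Only 146 genes passed on both diets in the same direction, and 103 passed on neither. Over all tested genes the knockout effect passed in 31.2% on chow and 32.4% on HFD. Seen from the diet, the effect of HFD passed in controls alone in 473 of the 1622 genes, in KO livers alone in 464, in both with opposite signs in 346, in both with the same sign in 265 and in neither in 74, where 37.7% of all tested genes passed in controls and 36.6% in KO livers. Passing in 1 group and not in the other is not itself a test of a difference, and the interaction is that test.

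**Figure D1:**
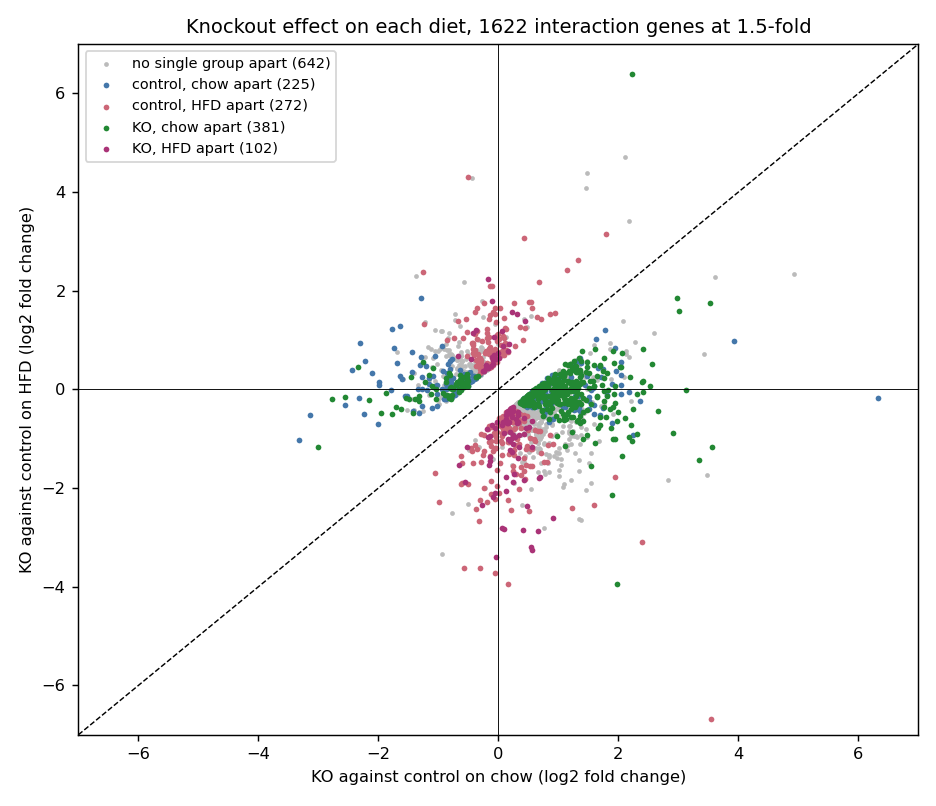
Knockout effect on chow (x axis) against knockout effect on HFD (y axis), both as log2 fold changes, for the 1622 interaction genes at 1.5-fold; each point is a gene, coloured by the group that stands apart, and the dashed line marks equal effects. Genes with KO on chow apart lie along the x axis, mostly on the right, and genes with HFD-fed controls apart lie above and below the centre.

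A gene was sorted to a group when that group's mean log2(CPM + 0.5) was farther from the nearest other mean than the other three lay from each other. The sorting uses the values that chose the genes, so it is a description without a test. For a single group apart, the rule also sets the sign of the interaction in these means. It shapes the medians given for each class too, so they are no separate evidence. Genes named for leading a class were also picked for having no overlap between libraries, so that trait is no finding about them. A single group stood apart for 980 of the 1622 genes (60.42%), in 877 of them without overlap between its libraries and the other 9. KO on chow was the most frequent, with 381 genes, 310 of them high, followed by HFD-fed controls with 272 (152 high, 120 low), chow-fed controls with 225 (98 high, 127 low) and KO on HFD with 102 (29 high, 73 low). The balance of high and low depended on the setting for 3 of the groups. Over all 4411 genes HFD-fed controls had 390 high and 512 low and KO on HFD 262 high and 217 low, and chow-fed controls had 133 high and 86 low on CPM without the log and 122 high and 106 low with the length and GC trend removed. Another 173 genes were crossed, with HFD-fed controls and KO on chow at one level and chow-fed controls and KO on HFD at the other, and 33 were paired by diet, 5 by genotype and 431 graded. Of the 310 genes high in KO on chow, 309 had a negative interaction in the fit, the sign that the rule sets in the means. The exception was Mpo, a neutrophil enzyme that had no counts in HFD-fed controls and is named here because it is that exception.

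**Figure D2:**
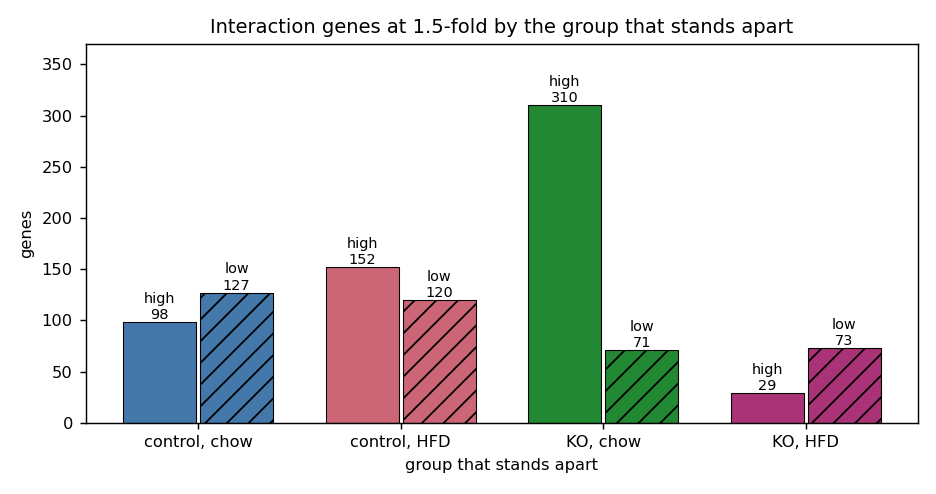
Bar chart of the number of interaction genes at 1.5-fold (y axis, genes) for which each of the 4 groups (x axis) stands apart, with plain bars for high and hatched bars for low. The tallest bar is KO on chow high, at 310 genes, and the shortest KO on HFD high, at 29.

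KO livers on chow stood apart by high levels of acute phase, macrophage and chemokine genes, which the knockout moved less on HFD. The median knockout effect of the 310 genes high in KO on chow was 1.11 on chow and -0.09 on HFD. In 296 of the 310 the libraries of KO on chow lay above all others. Cd14 (ENSMUSG00000051439), the macrophage and hepatocyte co-receptor for bacterial lipopolysaccharide, was at 4.63, 3.29 and 2.97 CPM in chow-fed controls and 5.41, 4.36 and 4.65 in HFD-fed controls. The knockouts had 16.8, 17.7 and 16.6 CPM on chow and 3.32, 2.95 and 4.62 on HFD. Its 3 KO libraries on chow lay above all others, which was a condition for naming it, and the other groups overlapped (interaction -2.63, SE 0.21, adjusted p = 9.12e-12). Elf3, an epithelial transcription factor induced by inflammation, was at 14.6, 13.7 and 14.8 CPM in KO on chow and at 0.430 to 2.35 in the other 9 libraries (interaction -3.09, SE 0.33, adjusted p = 4.63e-09). Igdcc4, a cell surface protein of the immunoglobulin superfamily, reached 16.5, 17.6 and 19.6 CPM there against 0.102 to 2.68 elsewhere (interaction -3.81, SE 0.55, adjusted p = 1.49e-06), on 9 counts in all 3 libraries of KO on HFD and 19 in HFD-fed controls. Adcy1, an adenylate cyclase that makes cyclic AMP, was at 13.9, 12.6 and 13.3 CPM against 0.406 to 3.42 (interaction -2.92, SE 0.37, adjusted p = 1.52e-07).

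Acute phase proteins are secreted by hepatocytes in response to interleukin 6 and interleukin 1. Of the 29 tested genes of the acute phase list, 23 had a negative interaction past the threshold and 2 a positive one, with a median of -0.41. That list also holds genes whose products are not secreted, such as Socs3 and Steap4. Over all tested genes 14.7% were negative and 15.2% positive, which is the background for each list given here. At 20% 7 acute phase genes passed, all negative, where 358 of all 14778 genes were negative and 152 positive. The median knockout effect of the acute phase list was 1.06 on chow and 0.49 on HFD. Saa2 (ENSMUSG00000057465), a serum amyloid A protein, was at 262, 254 and 263 CPM in chow-fed controls and 35.4, 36.2 and 35.8 in HFD-fed controls. KO livers had 2020, 2034 and 2052 CPM on chow and 126, 132 and 129 on HFD. It was higher in KO than in control livers on both diets, and HFD lay below chow in both genotypes, so KO on chow was alone at its level (interaction -1.12, SE 0.037, adjusted p = 6.79e-22). Lcn2, lipocalin 2, which binds bacterial siderophores and is also a neutrophil granule protein, was at 36.7, 38.7 and 39.95 CPM in chow-fed controls and 20.02, 22.3 and 21.7 in HFD-fed controls. The knockouts had 455, 441 and 431 CPM on chow and 69.4, 71.95 and 75.3 on HFD. Every KO library lay above every control library of either diet, and the knockout effect was 3.52 on chow and 1.76 on HFD (interaction -1.77, SE 0.063, adjusted p = 3.93e-21). Apcs, Hpx, Orm3, Saa3, Socs3 and Steap4 were the other acute phase genes with KO on chow apart. Hpx, the haem carrier hemopexin, had a mean of 10488 CPM there against 4875 in chow-fed controls, 3306 in HFD-fed controls and 4740.4 in KO on HFD. Hpx and Orm3 rest on the small spread (adjusted p = 0.578 and 0.0625 at 20%). Serpina3n was graded (interaction -0.99, SE 0.033, adjusted p = 4.76e-22) and rests on the small spread (adjusted p = 0.0748 at 20%). The exception in sign among the named was Serpina3k, a serine protease inhibitor at 2835, 2853 and 2844 CPM in HFD-fed controls and 5658 to 7228 elsewhere (interaction 1.01, SE 0.022, adjusted p = 6.10e-27), with adjusted p = 0.0628 at 20%. Serum amyloid and Serpina genes in mice have near-identical copies, and no source used here says how reads that map to several genes were treated, so the split between copies is uncertain.

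Kupffer cells are the resident macrophages of liver. Over all tested genes 14.7% had a negative interaction past the threshold, and 7.32% at 1.5-fold. Of 26 Kupffer cell and macrophage markers, 20 had a negative interaction past the threshold and none a positive one (median -0.80), all 20 at 1.5-fold, and KO on chow stood apart for 11 of them. At 20% 5 of the 26 passed. Their summed level was 385.3 to 397.5 CPM in chow-fed controls, 451.9 to 466.9 in HFD-fed controls, 812.7 to 839.6 in KO on chow and 543.0 to 560.5 in KO on HFD. Each of these ranges is separate from the others. Cd5l, a secreted macrophage protein that inhibits apoptosis, was at 36.96, 39.3 and 35.4 CPM in chow-fed controls and 38.4, 38.3 and 38.2 in HFD-fed controls. KO livers had 104, 104 and 102 CPM on chow and 54.9, 58.1 and 54.6 on HFD (interaction -0.93, SE 0.064, adjusted p = 1.54e-13). Mpeg1, the pore-forming perforin 2 of phagocytes, was at 131, 128 and 126 CPM in KO on chow and 44.7 to 63.9 elsewhere (interaction -0.83, SE 0.061, adjusted p = 8.18e-13). Clec4f, a lectin that marks mouse Kupffer cells, had means of 43.6 and 45.7 CPM in controls on chow and HFD and 99.2 and 64.8 in KO livers on the same diets (interaction -0.68, SE 0.063, adjusted p = 1.72e-10). Cd5l, Mpeg1 and Clec4f rest on the small spread (adjusted p = 0.119, 0.213 and 0.425 at 20%). In whole liver, fewer cells of a type and less RNA per cell cannot be told apart, and this holds for each marker list given here.

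Neutrophil markers had interactions of both signs. Over all tested genes 29.8% passed. Of 17 markers tested, 5 had a positive and 2 a negative interaction past the threshold, with a median of 0.02. Their median knockout effect was 1.48 on chow and 1.45 on HFD. The median interaction was unstable, from -0.22 without replicate 1 of HFD-fed controls to 0.48 without replicate 3 of the same group, and 0.66 in the 8 genes that reached 5 CPM. Their summed level was 738.7 to 762.8 CPM in KO on chow against 211.7 to 219.7 in chow-fed controls, 122.1 to 140.0 in HFD-fed controls and 245.2 to 250.9 in KO on HFD. In KO on chow Lcn2 alone, at 431 to 455 CPM on the scale used for single genes, made up a large part of that sum. Prtn3, the granule protease proteinase 3, was at 10.6, 11.6 and 10.4 CPM in chow-fed controls and 0.103, 0.135 and 0.129 in HFD-fed controls. The knockouts had 46.6, 45.95 and 48.1 CPM on chow and 2.91, 3.76 and 3.50 on HFD (interaction 2.60, SE 0.35, adjusted p = 4.37e-07), so KO was above control and HFD below chow throughout. Ngp, neutrophilic granule protein, had a positive interaction too (interaction 2.91, SE 0.54, adjusted p = 7.27e-05), on 4 counts in all 3 libraries of HFD-fed controls against 82 in KO on HFD. Both are positive as ratios. In CPM the difference between KO and control was larger on chow, at 36.03 against 3.27 for Prtn3 and 7.13 against 1.35 for Ngp.

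Chemokines and inflammatory cytokines had 12 of 23 tested genes with a negative interaction and 1 with a positive one (median -0.73), and 9 passed at 20%, all negative. Their median knockout effect was 1.10 on chow and 0.02 on HFD. Cxcl1, which attracts neutrophils, was at 6.92, 5.99 and 7.63 CPM in chow-fed controls and 10.96, 11.2 and 9.68 in HFD-fed controls. KO livers had 36.3, 37.9 and 34.6 CPM on chow and 12.7, 11.5 and 11.4 on HFD. KO on chow was the only group above 12.7 CPM (interaction -2.24, SE 0.13, adjusted p = 1.38e-15). Il6ra, the interleukin 6 receptor, had chow-fed controls low (-0.73) and lost its call at 20%. Icam1, an adhesion molecule for leukocytes, had means of 19.8 CPM in KO on chow, 9.83 in chow-fed controls, 10.03 in HFD-fed controls and 8.16 in KO on HFD (interaction -1.31, SE 0.14, adjusted p = 3.76e-09). The chemokines Ccl2 and Cxcl2 also had KO on chow apart, at means of 1.70 and 0.765 CPM, which are low levels. Spp1 (ENSMUSG00000029304), osteopontin, made by bile duct cells and by lipid-associated macrophages, was at 38.2, 43.1 and 36.6 CPM in chow-fed controls and 36.4, 38.2 and 35.03 in HFD-fed controls. The knockouts had 159.6, 156 and 146 CPM on chow and 24.4, 23.1 and 22.3 on HFD. It rose with the knockout on chow (1.97) and fell with it on HFD (-0.65), and KO on HFD was the lowest group (interaction -2.62, SE 0.079, adjusted p = 4.02e-23). The 16 cholangiocyte markers, which hold Spp1, summed to 130.8 to 135.1 CPM in chow-fed controls and 102.4 to 105.2 in HFD-fed controls. Sums in KO livers were 260.2 to 271.0 CPM on chow and 75.8 to 82.0 on HFD. In KO on chow Spp1 alone, at 146 to 159.6 CPM on the scale used for single genes, made up a large part of that sum. Of the 12 markers tested, 7 did not pass the interaction threshold. Of the 4 negative ones, Sox9, a bile duct transcription factor, rests on the small spread (interaction -0.66, SE 0.14, adjusted p = 5.52e-04), as does Cdh1, E-cadherin (interaction -0.37, SE 0.081, adjusted p = 5.34e-04), which no longer passed with the length and GC trend removed (-0.18, adjusted p = 0.0853).

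**Figure D3:**
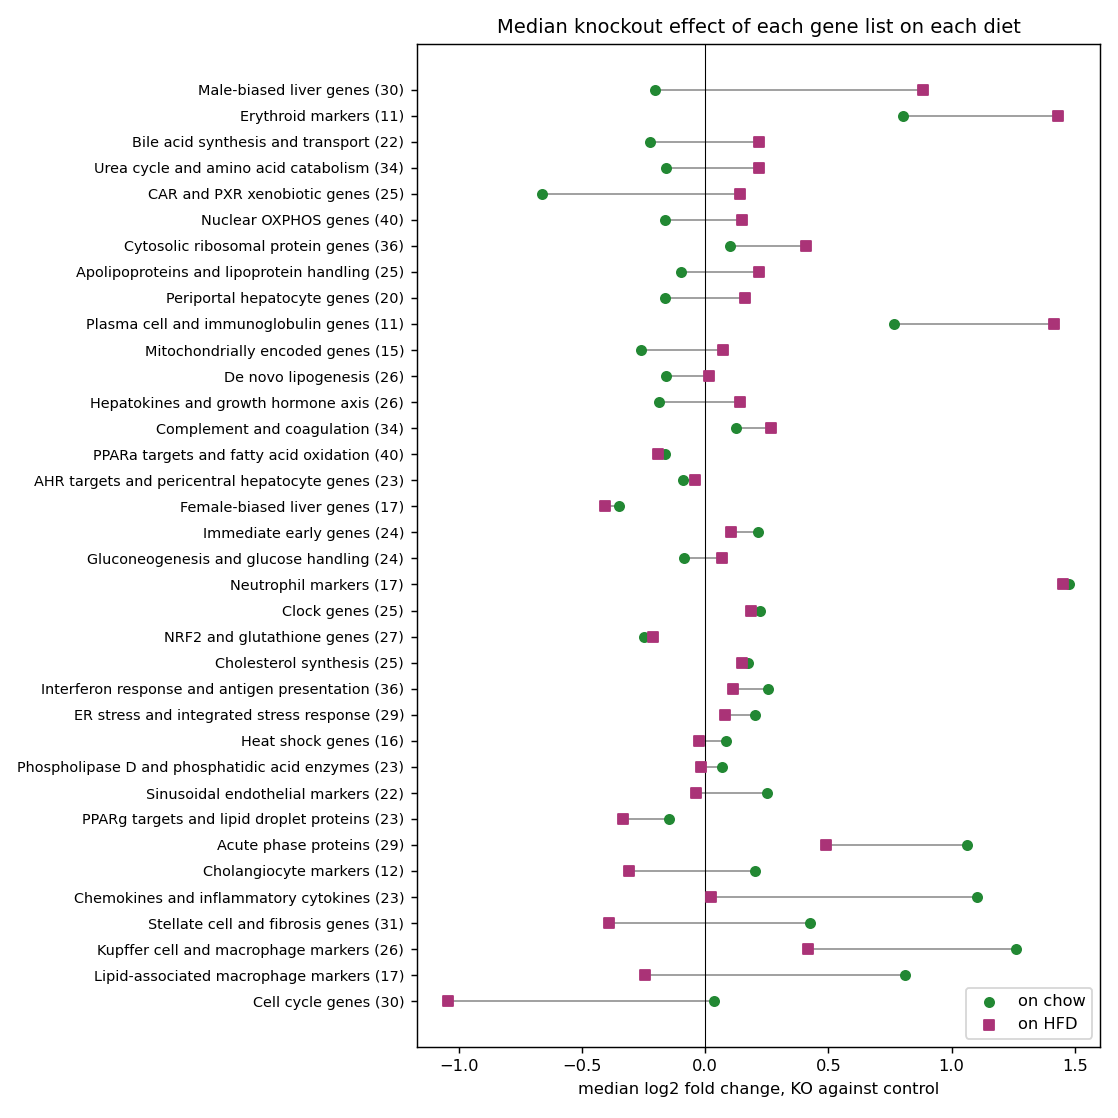
Median log2 knockout effect on chow (circles) and on HFD (squares) for each gene list with at least 10 tested members (y axis, with the number tested in brackets). Cell cycle genes sit at 0.03 on chow and -1.05 on HFD, male-biased genes at -0.21 and 0.89, and neutrophil markers at nearly the same place on both diets.

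Genes low in KO on chow were fewer, 71, and included fatty acid and detoxification enzymes. Mme, neprilysin, a membrane peptidase, was at 16.2, 17.2 and 14.3 CPM in chow-fed controls and 22.4, 19.6 and 21.8 in HFD-fed controls. KO livers had 1.62, 2.19 and 2.08 CPM on chow and 8.49, 9.77 and 10 on HFD. Both KO groups lay below both control groups, and the effect was larger on chow (interaction 1.84, SE 0.17, adjusted p = 1.93e-10). Ctse, the aspartic protease cathepsin E, was at 46.8, 43.7 and 44.5 CPM in chow-fed controls and 88.5, 89.5 and 89.5 in HFD-fed controls. The knockouts had 11.2, 11.2 and 12.5 CPM on chow and 66.9, 59.1 and 67.01 on HFD (interaction 1.48, SE 0.08, adjusted p = 2.89e-16). Serpinb1a, an inhibitor of neutrophil proteases, was at 2.48, 2.38 and 3.56 CPM in KO on chow and at 7.11 to 17.9 elsewhere (interaction 2.40, SE 0.19, adjusted p = 3.37e-12). Gstt3, a glutathione transferase, was at 22.9, 22.2 and 21.6 CPM against 34.9 to 51.8 (interaction 1.53, SE 0.077, adjusted p = 4.60e-17). Cyp4a10, a fatty acid omega-hydroxylase and PPARa target, was at 164, 169.9 and 156 CPM in chow-fed controls and 381, 350.5 and 367 in HFD-fed controls. KO livers had 62.1, 68.2 and 65.2 CPM on chow and 337, 308 and 285 on HFD (interaction 1.08, SE 0.063, adjusted p = 2.20e-15). Its neighbour in the same family, Cyp4a14, went the other way, at 100.1, 98.4 and 100.2 CPM in chow-fed controls and 1213, 1210 and 1239 in HFD-fed controls. The knockouts had 239.5, 229 and 235 CPM on chow and 1258, 1245 and 1226 on HFD (interaction -1.21, SE 0.033, adjusted p = 3.63e-24), so the knockout effect on chow was -1.32 for the first and 1.23 for the second; the members of this family are alike in sequence and the split of reads between them is uncertain. Acsl1, which activates long-chain fatty acids, was at 787, 799.5 and 802 CPM in KO on chow and 1328 to 1528 elsewhere (interaction 0.65, SE 0.026, adjusted p = 1.23e-19), and rests on the small spread (adjusted p = 0.463 at 20%). Over the 40 PPARa target and fatty acid oxidation genes, 17 interactions were positive and 9 negative (median 0.08).

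HFD-fed controls stood apart high for lipid droplet genes, cell cycle genes and part of the fibrosis genes. In these 152 genes the median diet effect was 1.08 in controls and -0.08 in KO livers, and the median knockout effect was 0.15 on chow and -1.05 on HFD. Apoa4 (ENSMUSG00000032080), an apolipoprotein whose level tracks fat load in mouse liver, was at 14.96, 14.4 and 15.3 CPM in chow-fed controls and 149, 151 and 125 in HFD-fed controls. KO livers had 19.6, 19.1 and 19.1 CPM on chow and 41.9, 38.6 and 47.3 on HFD (interaction -2.11, SE 0.11, adjusted p = 4.60e-17). HFD raised it in both genotypes, and the KO livers reached a lower level. Cidec, which fuses lipid droplets, was at 5.47, 6.09 and 6.64 CPM in chow-fed controls and 60.1, 65.5 and 57.8 in HFD-fed controls. The knockouts had 6.54, 7.23 and 7.98 CPM on chow and 18.9, 19.5 and 20.2 on HFD (interaction -1.90, SE 0.13, adjusted p = 6.01e-14). Cd36 (ENSMUSG00000002944), the fatty acid translocase named in the title, was at 53.9, 54.9 and 53.7 CPM in chow-fed controls and 221, 219 and 236 in HFD-fed controls. KO livers had 50.9, 50.5 and 47.4 CPM on chow and 108, 98.4 and 100 on HFD. HFD-fed controls were at least 219 CPM and no other library passed 108 (interaction -1.02, SE 0.059, adjusted p = 1.96e-15); with a coefficient of variation fixed at 20% its adjusted p was 0.0648. Plin4, a droplet coat protein, was graded. It rose with the knockout on chow (0.70) and fell with it on HFD (-1.21), at 22.8, 20.1 and 21.9 CPM in chow-fed controls and 141, 146 and 146 in HFD-fed controls. The knockouts had 34.8, 33.9 and 36.3 CPM on chow and 58.03, 60.2 and 68.3 on HFD (interaction -1.91, SE 0.077, adjusted p = 1.21e-19). Of 23 PPARg target and lipid droplet genes, 12 interactions were negative, 3 positive and 8 did not pass (median -0.28). That list holds Pparg and Cd36, which the study chose, so it is no independent evidence of a direction.

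The other leading genes of this class were unrelated by family. Ly6d, a membrane-anchored lymphocyte antigen 6 protein, was at 1.40, 0.688 and 0.694 CPM in chow-fed controls and 5.10, 7.02 and 5.77 in HFD-fed controls. KO livers had 1.82, 2.29 and 2.29 CPM on chow and 1.05, 1.24 and 1.07 on HFD (interaction -3.64, SE 0.34, adjusted p = 2.49e-10). It rose with the knockout on chow and fell with it on HFD. Gprc5b, an orphan receptor, was at 13.5, 15.9 and 15.1 CPM in HFD-fed controls and 0.540 to 3.25 elsewhere (interaction -2.65, SE 0.34, adjusted p = 1.61e-07). Pkdrej, a polycystin family receptor, was at 5.61, 5.94 and 5.72 CPM against 1.41 to 3.19 (interaction -2.01, SE 0.26, adjusted p = 1.65e-07). Vwf, the von Willebrand factor of endothelial cells, was at 14.1, 14.1 and 13.2 CPM against 5.06 to 7.65 (interaction -1.39, SE 0.16, adjusted p = 2.20e-08); of the 22 sinusoidal endothelial markers 10 interactions were negative, 1 positive and 11 did not pass. Plvap, of the endothelial fenestrae, and Stab2, a scavenger receptor, had chow-fed controls low, with interactions of -0.46 and -0.38 that rest on the small spread. Fgf21, a hormone that hepatocytes release under metabolic stress, was graded, at 1.95, 1.52 and 2.13 CPM in chow-fed controls and 21.9, 22.2 and 21.4 in HFD-fed controls. The knockouts had 4.82, 3.73 and 4.17 CPM on chow and 10.7, 11.97 and 12.9 on HFD (interaction -2.06, SE 0.19, adjusted p = 1.40e-10).

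Many cell cycle genes had their highest level in HFD-fed controls, mostly at low CPM. Of 30 tested, 19 had a negative interaction past the threshold and 1 a positive one, with a median of -1.37, and HFD-fed controls stood apart for 11 (Bub1b, Ccnb1, Cdk1, Cenpf, Foxm1, Kif11, Kif20a, Mcm2, Mcm5, Plk1 and Ube2c). Their median knockout effect was 0.03 on chow and -1.05 on HFD. Only 10 of the 30 reached 5 CPM in a group, and with a filter at that level the median interaction of those left was -0.23. At 20% 12 were negative and 1 positive. Mki67, the proliferation antigen Ki-67, was at 1.62, 2.80 and 2.48 CPM in chow-fed controls and 5.61, 5.53 and 6.76 in HFD-fed controls. KO livers had 2.84, 2.94 and 3.40 CPM on chow and 1.26, 1.24 and 1.01 on HFD (interaction -2.75, SE 0.28, adjusted p = 2.05e-09). Mki67 was graded, and every KO library on HFD lay below every other library. Mcm2, a subunit of the replicative helicase, had means of 8.67 CPM in HFD-fed controls and 4.86, 4.47 and 4.23 in chow-fed controls, KO on chow and KO on HFD (interaction -0.92, SE 0.21, adjusted p = 0.00114). Bub1b, a spindle checkpoint kinase, had means of 1.35 against 0.717, 0.695 and 0.344 CPM (interaction -1.92, SE 0.55, adjusted p = 0.00799), and Ube2c, a ubiquitin ligase partner needed to leave mitosis, 1.71 against 0.868, 0.887 and 0.606 (interaction -1.51, SE 0.45, adjusted p = 0.0107). Of the 11, Cdk1, Kif11, Kif20a, Mcm2, Mcm5 and Ube2c rest on the small spread. Other members were sorted elsewhere. Cdkn1a, the inhibitor p21, had chow-fed controls apart low, at 27.2, 25.6 and 26.5 CPM in chow-fed controls and 107, 109.7 and 107 in HFD-fed controls. The knockouts had 72.3, 75.6 and 76.8 CPM on chow and 96.97, 96.98 and 96.6 on HFD (interaction -1.66, SE 0.057, adjusted p = 1.85e-21). Tk1, thymidine kinase, was the 1 positive member, at 22.2, 22.3 and 20.4 CPM in chow-fed controls and 10.3, 10.9 and 12.5 in HFD-fed controls. KO livers had 14.3, 15.4 and 15.2 CPM on chow and 19.4, 18.9 and 19.8 on HFD (interaction 1.31, SE 0.11, adjusted p = 2.82e-11).

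Genes that peak late in the cell cycle are known to be repressed in resting cells through a cell cycle homology region (CHR), with CCAAT boxes nearby that bind NF-Y. Sequence upstream of 3 genes with HFD-fed controls apart is shown because these genes moved together and carry both motifs. The choice did not use when a gene peaks or where a match lies. The background on late genes thus need not hold for each of them, such as Mcm2 of the replicative helicase. It is from RefSeq (GRCm38.p6), read 5′ to 3′ on the gene's strand, with matches to the CHR (TTTGAA or TTCGAA) and to CCAAT, each on either strand, in capitals. The motifs do not overlap each other. Mcm2 is at chr6:88898781-88899030 on the minus strand, Bub1b at chr2:118597961-118598210 on the plus strand and Ube2c at chr2:164769809-164769928 on the plus strand, where only the stretch next to the start site is printed because both motifs occur in it.
Mcm2: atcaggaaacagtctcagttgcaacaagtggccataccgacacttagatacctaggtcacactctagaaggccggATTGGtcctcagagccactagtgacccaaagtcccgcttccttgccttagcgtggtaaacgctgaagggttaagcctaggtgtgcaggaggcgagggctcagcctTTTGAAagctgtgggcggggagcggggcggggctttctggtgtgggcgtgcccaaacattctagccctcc
Bub1b: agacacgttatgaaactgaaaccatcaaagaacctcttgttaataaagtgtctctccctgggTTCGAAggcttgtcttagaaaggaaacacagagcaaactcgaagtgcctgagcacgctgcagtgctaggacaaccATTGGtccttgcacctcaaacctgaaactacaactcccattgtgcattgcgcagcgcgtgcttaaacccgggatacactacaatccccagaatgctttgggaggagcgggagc
Ube2c: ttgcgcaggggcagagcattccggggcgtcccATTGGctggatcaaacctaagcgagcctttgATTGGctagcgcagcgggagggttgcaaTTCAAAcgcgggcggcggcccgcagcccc
In windows from 250 bases before the start site, 9 of the 11 genes with HFD-fed controls apart matched an entry, and 5 of the 9 held a CHR, all 9 a CCAAT box and 5 both. Over the whole cell cycle list (29 windows of 27 genes) 34.48% held a CHR and 75.86% a CCAAT box, against 17.15% and 33.85% of 32851 windows of all genes; 6.021% of all windows held both. The motifs were chosen after the values were seen, and a match is a run of letters, not a measured binding site.

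Stellate cell and fibrosis genes had 25 of 31 tested genes with a negative interaction and none with a positive one (median -0.74), and a median knockout effect of 0.42 on chow and -0.39 on HFD. With the length and GC trend removed, 22 were negative and 1 positive, and at 20% 7 were negative and none positive. Col1a1, the main chain of fibrillar collagen I, was at 4.30, 4.47 and 3.77 CPM in chow-fed controls and 17.1, 16.6 and 16.3 in HFD-fed controls. The knockouts had 9.48, 7.84 and 8.54 CPM on chow and 4.92, 6.82 and 7.16 on HFD (interaction -2.44, SE 0.17, adjusted p = 3.47e-13). Its knockout effect was 1.04 on chow and -1.40 on HFD, both past the threshold. Col1a1, Col3a1 and Col4a1 were sorted as graded, with HFD-fed controls the highest group. Col3a1, of collagen III, had the same order of groups, at 14.3, 14.9 and 13.1 CPM in chow-fed controls and 31.8, 31.7 and 33.9 in HFD-fed controls. KO livers had 22.8, 21.5 and 21.1 CPM on chow and 17.3, 17.7 and 17.4 on HFD (interaction -1.53, SE 0.096, adjusted p = 1.57e-14). Col4a1, a basement membrane collagen, was at 20.3, 17.5 and 18.8 CPM in chow-fed controls and 34.7, 34.3 and 30.98 in HFD-fed controls. The knockouts had 27.6, 30.5 and 26.98 CPM on chow and 22.9, 21.1 and 21.5 on HFD (interaction -1.20, SE 0.096, adjusted p = 6.15e-12). Acta2, the smooth muscle actin of activated stellate cells, was at a mean of 3.78 CPM in HFD-fed controls and 1.82, 1.75 and 1.99 in the others (interaction -0.87, SE 0.30, adjusted p = 0.0284), and rests on the small spread (adjusted p = 0.393 at 20%). HFD-fed controls also stood apart high for Col5a1, Col6a3 and Loxl2. Of these, Col5a1 and Col6a3 rest on the small spread (adjusted p = 0.484 and 0.154 at 20%) and Loxl2 kept its call (0.0245). The summed level of the list, which weighs its abundant members most, was 2790 to 2911 CPM in KO on chow and 2265 to 2394 in the other 9 libraries. Lipid-associated macrophage markers had 11 of 17 negative and 1 positive (median -1.19), with 7 negative at 20%; the positive one was Apoe, which is abundant in hepatocytes (interaction 0.31, SE 0.022, adjusted p = 2.71e-13) and lost its call at 20% (adjusted p = 0.988), and Lpl, lipoprotein lipase, was among the negative (interaction -1.01, SE 0.12, adjusted p = 2.31e-08), with adjusted p = 0.0847 at 20%.

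HFD-fed controls stood apart low for many male-biased genes. In the 120 genes low in HFD-fed controls the median diet effect was -1.08 in controls and 0.01 in KO livers. Hsd3b5 (ENSMUSG00000038092), a steroid dehydrogenase of male mouse liver, was at 132, 127 and 132 CPM in chow-fed controls and 1.96, 1.21 and 1.25 in HFD-fed controls. KO livers had 93.4, 88.7 and 92.4 CPM on chow and 30.3, 29.4 and 26.4 on HFD (interaction 4.81, SE 0.11, adjusted p = 5.83e-26). HFD lowered it in both genotypes, to at most 1.96 CPM in controls. Of 30 male-biased liver genes, 24 had a positive interaction and 2 a negative one (median 1.01), the median knockout effect was -0.21 on chow and 0.89 on HFD, and 18 of the 22 at 1.5-fold had HFD-fed controls apart low. At 20% 14 passed, all positive. Serpina1e, an alpha-1 antitrypsin paralog, was at 4093, 4029 and 4068 CPM in chow-fed controls and 489, 494 and 498 in HFD-fed controls. The knockouts had 6594, 6509 and 6384 CPM on chow and 2275, 2219 and 2203 on HFD (interaction 1.5, SE 0.023, adjusted p = 2.01e-31). The sign is that of the ratio, since in CPM KO exceeded control by 2432 on chow and 1739 on HFD. Mup19, a major urinary protein, was at 487, 506 and 514 CPM in chow-fed controls and 153, 152 and 154 in HFD-fed controls. KO livers had 438, 414 and 423 CPM on chow and 528, 522 and 489 on HFD (interaction 1.99, SE 0.042, adjusted p = 4.11e-27). Slco1a1, an organic anion uptake transporter, was at 263, 257 and 264 CPM in chow-fed controls and 70.9, 71.7 and 73.6 in HFD-fed controls. The knockouts had 202, 196 and 199 CPM on chow and 220.4, 212 and 206 on HFD (interaction 1.95, SE 0.045, adjusted p = 3.38e-26). Mup and Serpina1 genes have near-identical copies, so several members of this list may count the same reads. Mup21 was the exception at 1.5-fold, with a mean of 202 CPM in KO on chow and 108, 108 and 101 in chow-fed controls, HFD-fed controls and KO on HFD (interaction -1.002, SE 0.079, adjusted p = 3.68e-12), and rests on the small spread (adjusted p = 0.0711 at 20%). The 17 female-biased genes tested had 5 positive and 4 negative interactions (median 0.05, and -0.08 without replicate 1 of KO on chow). Among them Cyp17a1, a steroid hydroxylase, was higher on HFD and rose with the knockout on chow, at 6.48, 6.14 and 5.35 CPM in chow-fed controls and 57.5, 59.6 and 58.4 in HFD-fed controls. KO livers had 18.4, 16.1 and 18.6 CPM on chow and 65.4, 66.7 and 68.1 on HFD (interaction -1.38, SE 0.097, adjusted p = 3.20e-13). Rtn4, a reticulon of the endoplasmic reticulum, was at 103, 101 and 94.8 CPM in HFD-fed controls and 61.5 to 73.2 elsewhere (interaction -0.70, SE 0.061, adjusted p = 4.93e-11), a call that rests on the small spread.

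Some xenobiotic, bile acid and complement genes also had HFD-fed controls apart low. Cyp1a2 (ENSMUSG00000032310), the caffeine-oxidising P450 of pericentral hepatocytes, was at 1118, 1082 and 1105 CPM in chow-fed controls and 340.1, 337 and 345 in HFD-fed controls. The knockouts had 988, 1003 and 1009 CPM on chow and 1470, 1454 and 1454 on HFD (interaction 2.24, SE 0.029, adjusted p = 4.09e-33). KO on HFD was the highest group and HFD-fed controls the lowest, with the chow groups between. Igfbp2, which binds insulin-like growth factors, was at 452, 538 and 464 CPM in chow-fed controls and 163, 160.3 and 153 in HFD-fed controls. KO livers had 293, 310.2 and 311 CPM on chow and 420.1, 409.9 and 422 on HFD. The knockout lowered it on chow (-0.67) and raised it on HFD (1.39) (interaction 2.06, SE 0.058, adjusted p = 6.48e-24). Cyp2c54, an arachidonate-oxidising P450, was at 412, 410.5 and 426 CPM in chow-fed controls and 70.5, 66.9 and 70.7 in HFD-fed controls. The knockouts had 175, 179 and 176 CPM on chow and 178, 176 and 166 on HFD (interaction 2.56, SE 0.047, adjusted p = 5.09e-29). C8b, a subunit of the complement membrane attack complex, was at 76.9, 79.1 and 79.4 CPM in HFD-fed controls and 179.8 to 351 elsewhere (interaction 1.10, SE 0.042, adjusted p = 2.62e-20); the complement genes C6 and C8g had interactions of 0.59 and 0.53, resting on the small spread. Over 34 complement and coagulation genes 15 interactions were positive and 8 negative (median 0.08). Cyp7b1, which makes bile acids by the alternative pathway, was at 84.4, 85.96 and 86.3 CPM against 177 to 225 (interaction 1.12, SE 0.046, adjusted p = 2.13e-19). Cyp7a1, the rate-limiting enzyme of the classical pathway, had a mean of 83.7 CPM in HFD-fed controls and 152, 157 and 157 in the other groups (interaction 0.86, SE 0.06, adjusted p = 1.95e-13), and rests on the small spread (adjusted p = 0.172 at 20%). Bile acid synthesis and transport genes had 19 of 22 tested with a positive interaction and 1 negative (median 0.49), of which 3 passed at 20%. Of the 8 at 1.5-fold, 4 had HFD-fed controls low. Cyp2c70, which makes muricholic acids, was graded (interaction 1.12, SE 0.04, adjusted p = 3.77e-21), and Slc10a1, the bile acid uptake carrier, had KO on chow apart low, at a mean of 402 CPM against 574, 493 and 569 (interaction 0.72, SE 0.033, adjusted p = 4.70e-18), and rests on the small spread (adjusted p = 0.35 at 20%).

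**Figure D4:**
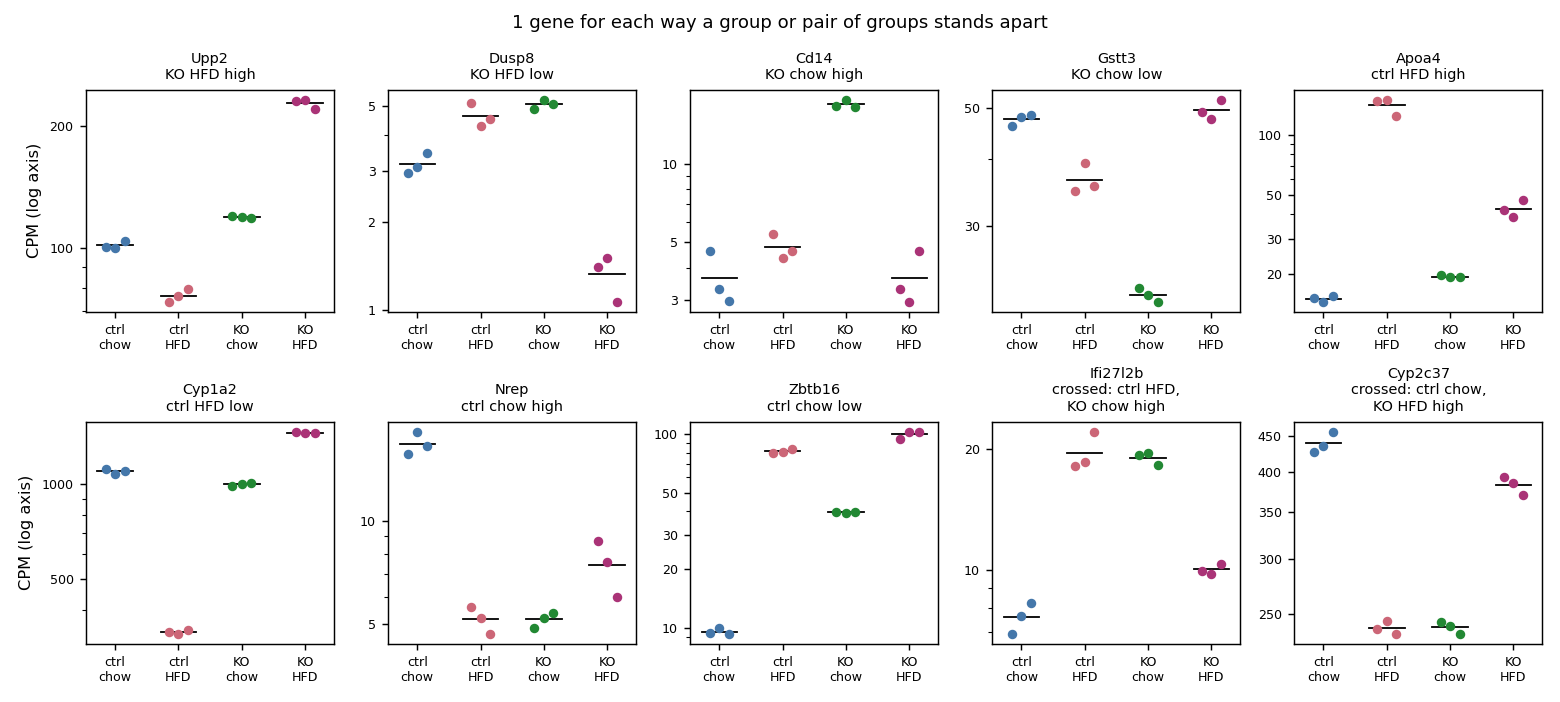
CPM in each of the 12 libraries (log y axis, a separate scale in each panel) for 10 genes, the one with the smallest interaction p among those named for each way a group or pair of groups stands apart; points are libraries, grouped by genotype and diet on the x axis, and bars are the means of 3. Socs2 and Nrep share a class and Nrep is the one drawn, at 15.6 to 18.1 CPM in chow-fed controls and 4.69 to 8.69 elsewhere.

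By the sorting rule, genes with chow-fed controls apart are those that the knockout and HFD each moved the same way. The remaining groups then differ less among themselves, by that same rule. In the 98 genes high in chow-fed controls the median knockout effect was -0.88 on chow and 0.15 on HFD, and the diet effect -1.04 in controls and 0.11 in KO livers. Socs2 (ENSMUSG00000020027), a growth hormone target that feeds back on its receptor, was at 20.04, 20.6 and 17.2 CPM in chow-fed controls and 2.78, 2.52 and 2.19 in HFD-fed controls. KO livers had 4.36, 3.87 and 4.17 CPM on chow and 2.41, 4.13 and 4.57 on HFD. Chow-fed controls were at least 17.2 CPM and no other library passed 4.57 (interaction 2.79, SE 0.23, adjusted p = 1.51e-11). A lack of overlap was a condition for naming Socs2. Onecut1, a hepatocyte transcription factor also called HNF6, was at 17.5, 17.98 and 15.7 CPM there and 2.43 to 5.74 elsewhere (interaction 2.43, SE 0.25, adjusted p = 2.13e-09). Nr4a1, an immediate early nuclear receptor, was at 33, 30.7 and 33.7 CPM in chow-fed controls and 3.19, 3.64 and 3.31 in HFD-fed controls. The knockouts had 7.91, 8.58 and 8.03 CPM on chow and 3.87, 3.33 and 3.65 on HFD (interaction 2.08, SE 0.16, adjusted p = 3.38e-12). Nrep, a neuronal regeneration related protein, was at 15.6, 18.1 and 16.4 CPM against 4.69 to 8.69 (interaction 2.22, SE 0.18, adjusted p = 5.18e-12). Vmn1r90, annotated as a vomeronasal receptor, was at 5.92, 7.47 and 6.69 CPM against 1.06 to 2.26 (interaction 2.83, SE 0.32, adjusted p = 1.86e-08); it has close paralogs, so the reads' source is uncertain. Igfals, the growth hormone dependent partner of IGF1 in blood, was at 138, 127 and 134 CPM against 76.3 to 102 (interaction 0.86, SE 0.055, adjusted p = 2.42e-14), and Cth, which makes cysteine, at 678, 670.1 and 664 against 331 to 398 (interaction 1.02, SE 0.035, adjusted p = 1.44e-21); both rest on the small spread (adjusted p = 0.175 and 0.0617 at 20%).

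Of the 10 xenobiotic genes of the receptors CAR and PXR at 1.5-fold, 4 had chow-fed controls apart high and 6 were spread over other classes. Of 25 tested, 18 had a positive interaction and 1 a negative one (median 0.39; 7 positive and none negative at 20%), with a median knockout effect of -0.66 on chow and 0.14 on HFD. Cyp2b10, the classical CAR target, had means of 17.01 CPM in chow-fed controls, 1.65 in HFD-fed controls, 4.25 in KO on chow and 1.82 in KO on HFD (interaction 2.14, SE 0.29, adjusted p = 4.26e-07). Cyp2c29 was graded, at 1564, 1542 and 1565 CPM in chow-fed controls and 433, 439.8 and 458 in HFD-fed controls. KO livers had 1031, 996 and 1005 CPM on chow and 743, 731 and 674 on HFD (interaction 1.31, SE 0.038, adjusted p = 1.34e-23). The Cyp2b and Cyp2c genes are families of alike members, and their split is uncertain. Among hepatocyte zone genes, the pericentral and AHR targets had 8 positive and 6 negative interactions of 23 (median 0.07, and -0.04 without replicate 1 of KO on chow). Cyp2e1, an ethanol-oxidising P450, was at 5437, 5372 and 5410 CPM in chow-fed controls and 5972, 5944 and 6021 in HFD-fed controls. The knockouts had 4424, 4395 and 4337 CPM on chow and 7700, 7527 and 7403 on HFD (interaction 0.64, SE 0.019, adjusted p = 5.29e-23). Rgn, regucalcin, had an interaction of 0.62. Periportal genes had 12 positive and 6 negative of 20 (median 0.26), with 0.57 for Ass1, argininosuccinate synthase. Cyp2e1, Rgn and Ass1 rest on the small spread.

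The 127 genes low in chow-fed controls had a median knockout effect of 0.81 on chow and -0.15 on HFD, and a median diet effect of 0.86 in controls. Lpin1 (ENSMUSG00000020593), lipin 1, which turns phosphatidic acid, the product of PLD1, into diacylglycerol, was at 95.97, 95.8 and 95.97 CPM in chow-fed controls and 312, 322 and 306 in HFD-fed controls. KO livers had 368, 367 and 373 CPM on chow and 554, 554 and 564 on HFD. Both genotypes rose with HFD and KO lay above control on each diet, so the knockout effect was 1.95 on chow and 0.83 on HFD (interaction -1.11, SE 0.038, adjusted p = 1.49e-21). Zbtb16, a zinc finger transcription factor, had a like pattern, at 9.38, 9.93 and 9.32 CPM in chow-fed controls and 80.1, 81.05 and 83.5 in HFD-fed controls. The knockouts had 39.6, 39.2 and 39.6 CPM on chow and 94.96, 103 and 102 on HFD (interaction -1.75, SE 0.074, adjusted p = 4.49e-19). Chrm3, the muscarinic acetylcholine receptor M3, was at 0.0558, 0.0983 and 0.0496 CPM in chow-fed controls and 2.78, 2.74 and 2.19 in HFD-fed controls. KO livers had 6.49, 5.83 and 5.64 CPM on chow and 2.86, 1.83 and 2.13 on HFD (interaction -6.49, SE 0.44, adjusted p = 8.61e-14); chow-fed controls held 4 counts in all 3 libraries, against 364 in KO on chow. Il1rn, the antagonist of the interleukin 1 receptor, was at 1.45, 1.82 and 1.09 CPM in chow-fed controls and 3.35 to 7.60 elsewhere (interaction -2.22, SE 0.26, adjusted p = 3.07e-08). Ucp2, a mitochondrial carrier, was at 17.2, 12.2 and 13.2 CPM against 26.96 to 40.1 (interaction -1.72, SE 0.12, adjusted p = 1.31e-13). Hmox1, haem oxygenase 1, was at 9.32, 12.3 and 10.5 CPM in chow-fed controls and 20.5, 23.7 and 22.6 in HFD-fed controls. The knockouts had 26.8, 26.1 and 24.5 CPM on chow and 15.2, 17.9 and 17.01 on HFD (interaction -1.68, SE 0.12, adjusted p = 3.50e-13). Vcam1, an endothelial adhesion molecule, was at 3.29, 3.54 and 3.87 CPM in chow-fed controls and 8.004 to 15.2 elsewhere (interaction -1.49, SE 0.15, adjusted p = 1.63e-09). Of 16 heat shock genes 9 interactions were negative and 2 positive (median -0.17); Hspa1b, an inducible HSP70, was at 18.4, 13.9 and 14.97 CPM in chow-fed controls and 21 to 29.1 elsewhere (interaction -0.98, SE 0.12, adjusted p = 3.55e-08), and rests on the small spread, as do Hspa8 (-0.41) and Hsph1 (-0.47). Over the 23 tested genes of the phospholipase D family and of phosphatidic acid metabolism, 9 interactions were negative, 3 positive and 11 did not pass (median -0.18). Agpat2, which makes phosphatidic acid by acylation, had an interaction of 0.39 and Lpin2, a second lipin, of -0.30, both resting on the small spread. Besides Lpin1 the other at 1.5-fold was Pld4, a gene of myeloid cells that is listed for its family and not for a known part in phosphatidic acid metabolism. Pld4 had a mean of 11.6 CPM in KO on chow and 5.23, 6.10 and 5.89 in chow-fed controls, HFD-fed controls and KO on HFD (interaction -1.19, SE 0.20, adjusted p = 1.33e-05).

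KO on HFD was the rarest group to stand apart. Upp2 (ENSMUSG00000026839), a uridine phosphorylase of liver, was at 101, 100 and 104 CPM in chow-fed controls and 73.9, 76.1 and 79.3 in HFD-fed controls. KO livers had 120.3, 119.5 and 119 CPM on chow and 231, 232 and 221 on HFD (interaction 1.34, SE 0.049, adjusted p = 8.44e-21). Thrsp, a lipogenic protein also called Spot14, was at 217, 218 and 215 CPM in chow-fed controls and 166, 161 and 165 in HFD-fed controls. The knockouts had 209, 206 and 206 CPM on chow and 348, 331 and 339 on HFD (interaction 1.12, SE 0.041, adjusted p = 5.70e-21). In both genes HFD lowered the level in controls and raised it in KO livers. Egr1, an immediate early transcription factor, was at 14.5, 14.4 and 13.7 CPM in chow-fed controls and 21.2, 22.8 and 23.1 in HFD-fed controls. KO livers had 18.1, 17.5 and 17.02 CPM on chow and 60.6, 65.5 and 66.7 on HFD (interaction 1.22, SE 0.09, adjusted p = 1.04e-12). Map2k6, a kinase that activates p38, was at 6.13, 7.25 and 7.77 CPM in KO on HFD and 2.62 to 4.91 elsewhere (interaction 1.57, SE 0.25, adjusted p = 7.37e-06), and P2ry1, a receptor for ADP, at 10.6, 10.04 and 9.60 against 3.55 to 7.34 (interaction 1.35, SE 0.19, adjusted p = 1.23e-06). Angptl8, an insulin-induced inhibitor of lipoprotein lipase, had a mean of 43.8 CPM there and 31.5, 28.6 and 22.9 in the other groups (interaction 1.07, SE 0.083, adjusted p = 3.60e-12), and just missed the threshold at 20% (adjusted p = 0.0503). On the low side, Dusp8, a phosphatase of stress kinases, was at 2.96, 3.10 and 3.47 CPM in chow-fed controls and 5.15, 4.27 and 4.52 in HFD-fed controls. The knockouts had 4.92, 5.27 and 5.08 CPM on chow and 1.41, 1.5 and 1.07 on HFD (interaction -2.48, SE 0.24, adjusted p = 6.00e-10). Raet1e, a ligand of the natural killer receptor NKG2D, was at 2.51, 2.85 and 2.74 CPM in KO on HFD and 7.11 to 10.8 elsewhere (interaction -1.32, SE 0.16, adjusted p = 6.85e-08), Scd2, a stearoyl-CoA desaturase, at 3.52, 5.42 and 3.20 against 5.64 to 8.90 (interaction -1.32, SE 0.21, adjusted p = 9.26e-06), and Hunk, a protein kinase, at 2.31, 1.40 and 1.62 against 3.14 to 6.86 (interaction -1.24, SE 0.29, adjusted p = 0.00102). De novo lipogenesis as a list went both ways, with 13 positive, 9 negative and 4 not passing of 26 (median 0.16): Fads2, a fatty acid desaturase, had a negative interaction (interaction -0.86, SE 0.039, adjusted p = 3.75e-18), which rests on the small spread (adjusted p = 0.172 at 20%), against the positive one of Thrsp.

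By the sorting rule, crossed genes are those in which HFD in controls and the knockout on chow moved the level the same way. Under that same rule, KO on HFD lay nearer to chow-fed controls than to the other groups. It did not always return to their level, as in Ifi27l2b. In 101 of the 173 crossed genes the pairs did not overlap, and the leading ones were picked for this. Cyp2c37 (ENSMUSG00000042248), a P450 that oxidises arachidonate, was at 428, 435 and 457 CPM in chow-fed controls and 238, 245 and 235 in HFD-fed controls. KO livers had 244, 240.4 and 235 CPM on chow and 393, 386 and 370.2 on HFD (interaction 1.56, SE 0.042, adjusted p = 2.92e-24). Afmid, the kynurenine formamidase of tryptophan breakdown, was at 23.7, 21.8 and 24.8 CPM in chow-fed controls and 12.6, 13.6 and 13.7 in HFD-fed controls. The knockouts had 14.8, 14.9 and 15.04 CPM on chow and 18.99, 20.2 and 22.4 on HFD (interaction 1.28, SE 0.11, adjusted p = 3.02e-11). Cela1, an elastase, was at 25.5, 23.6 and 23.1 CPM in chow-fed controls and 15.3, 17.1 and 16.2 in HFD-fed controls. KO livers had 15.2, 15.3 and 14.7 CPM on chow and 30.1, 30.5 and 29.3 on HFD (interaction 1.56, SE 0.095, adjusted p = 6.12e-15); 14 to 18 of the 21 exocrine pancreas markers were at 0 in each group, and only 2 passed the filter on low counts. Hnf4aos, transcribed antisense to Hnf4a, was at 5.86, 5.55 and 5.65 CPM in chow-fed controls, 5.63, 5.96 and 6.40 in KO on HFD and 2.47 to 3.40 elsewhere (interaction 1.88, SE 0.21, adjusted p = 9.44e-09); without a stated strand its reads cannot be told apart from those of Hnf4a. Sult2a8, a sulfotransferase, was at 737, 759 and 738 CPM in chow-fed controls and 488, 486 and 492 in HFD-fed controls. The knockouts had 497, 488 and 477 CPM on chow and 753, 728 and 707 on HFD (interaction 1.19, SE 0.035, adjusted p = 1.95e-23). The opposite crossing, with HFD-fed controls and KO on chow high, held 108 genes. Ifi27l2b, an interferon-inducible gene, was at 6.92, 7.67 and 8.28 CPM in chow-fed controls and 18.2, 18.5 and 22.1 in HFD-fed controls. KO livers had 19.3, 19.6 and 18.3 CPM on chow and 9.95, 9.77 and 10.3 on HFD (interaction -2.29, SE 0.13, adjusted p = 1.07e-15). S100a11, a calcium-binding protein, was at 2.74, 3.59 and 2.88 CPM in chow-fed controls and 5.10, 8.01 and 7.49 in HFD-fed controls. The knockouts had 6.89, 6.91 and 7.26 CPM on chow and 4.02, 4.24 and 4.06 on HFD (interaction -1.94, SE 0.22, adjusted p = 1.37e-08). Ccdc120 and Mtmr11, a coiled-coil and a myotubularin-related protein, were at 4.01 to 5.88 and 4.05 to 5.84 CPM in the 6 libraries of the high pair and at 1.12 to 2.18 and 1.61 to 3.10 in the others, with interactions of -3.49 (SE 0.27, adjusted p = 2.60e-12) and -2.38 (SE 0.25, adjusted p = 3.03e-09). Cxcl9, a chemokine induced by interferon gamma, was at 6.81, 5.65 and 5.21 CPM in chow-fed controls and 8.90, 7.47 and 8.43 in HFD-fed controls. KO livers had 10.5, 9.38 and 7.87 CPM on chow and 5.28, 5.21 and 4.57 on HFD (interaction -1.38, SE 0.18, adjusted p = 3.73e-07). Of 36 interferon response and antigen presentation genes, 13 interactions were negative, 3 positive and 20 did not pass (median -0.11); Cd74, the invariant chain of MHC class II, was among the negative (interaction -0.72, SE 0.074, adjusted p = 2.26e-09) and lost its call at 20%, as did H2-Eb1, an MHC class II chain (-0.64).

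**Figure D5:**
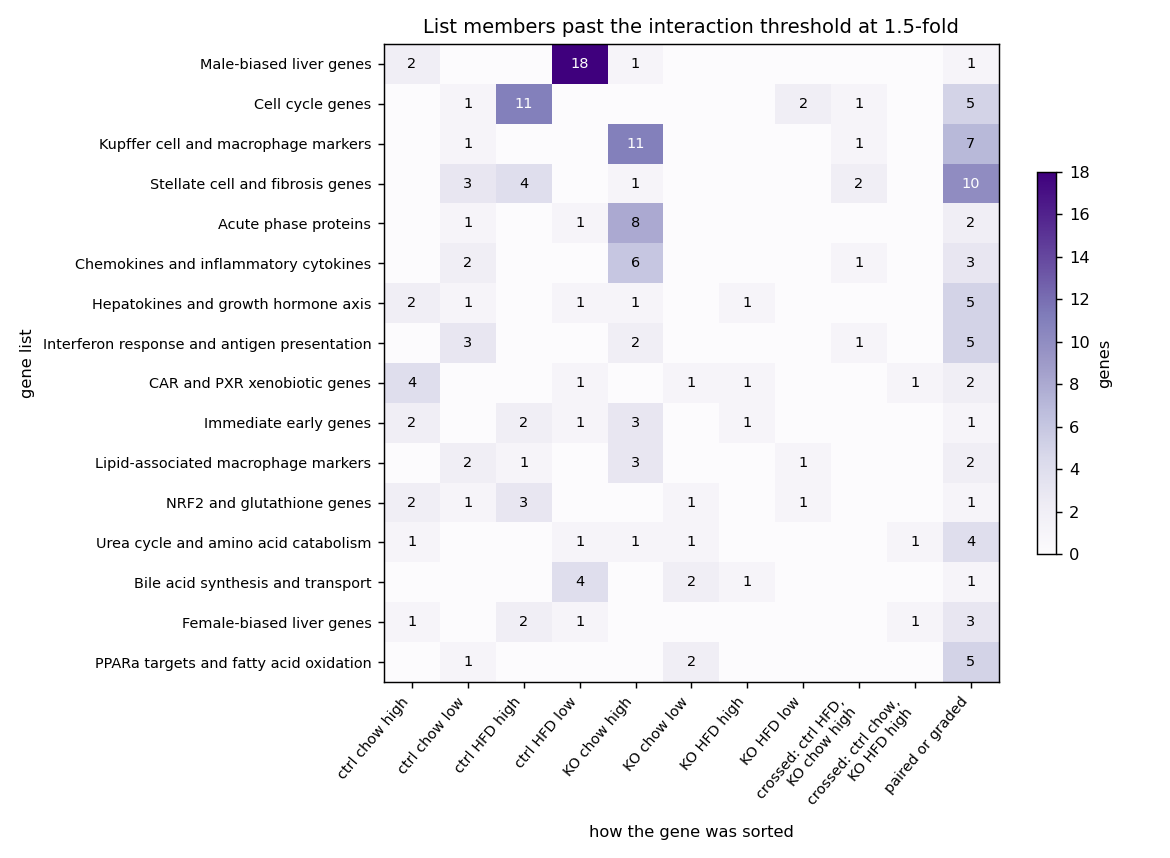
Number of members of each gene list (y axis) past the interaction threshold at 1.5-fold in each sorted class (x axis), for lists with at least 8 such members; darker cells hold more genes and empty cells none. The fullest cell is the 18 male-biased genes with HFD-fed controls low, followed by the 11 cell cycle genes with HFD-fed controls high and the 11 macrophage markers with KO on chow high.

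In some lists of housekeeping and abundant hepatocyte genes most interactions were small and positive, and these calls rest on the small spread. At 20% no oxidative phosphorylation, ribosomal protein or urea cycle gene passed, and 1 apolipoprotein gene did, with a negative interaction. Of 40 nuclear genes of oxidative phosphorylation, 34 were positive, none negative and none reached 1.5-fold (median 0.32), with a median knockout effect of -0.16 on chow and 0.15 on HFD. Sdhb, a subunit of succinate dehydrogenase, was at 209, 211 and 206 CPM in chow-fed controls and 193, 193 and 191 in HFD-fed controls. The knockouts had 156, 156 and 159.8 CPM on chow and 204, 196 and 201 on HFD (interaction 0.47, SE 0.042, adjusted p = 8.68e-11). Ndufs7, of complex I, had an interaction of 0.56 and Uqcrq, of complex III, of 0.39. Cytosolic ribosomal protein genes were positive in 34 of 36 and negative in none (median 0.31), with Rpl3 at 105, 105 and 107 CPM in HFD-fed controls and 163 to 179.6 elsewhere (interaction 0.61, SE 0.046, adjusted p = 1.80e-12); Rpl18 (0.49) and Rps23 (0.42) were sorted the same way. Urea cycle and amino acid catabolism genes were positive in 27 of 34 and negative in 1 (median 0.40); Cps1, which starts the urea cycle, was at 3517, 3462 and 3409 CPM in chow-fed controls and 1854, 1849 and 1902 in HFD-fed controls. KO livers had 2701, 2678 and 2646 CPM on chow and 2838, 2833 and 2788 on HFD (interaction 0.97, SE 0.023, adjusted p = 9.19e-26). Hpd, of tyrosine breakdown, had an interaction of 0.79. Apolipoprotein and lipoprotein genes were positive in 16 of 25 and negative in 3 (median 0.27), with Apoa2, of high-density lipoprotein, at 4496, 4406 and 4542 CPM in KO on chow and 5137 to 6412 elsewhere (interaction 0.55, SE 0.027, adjusted p = 2.88e-17), and with 0.57 for Apoc3, an inhibitor of triglyceride clearance. The share of genes with a positive interaction was 15.2% over all tested genes. All the genes named in these lists rest on the small spread. Sdhb, Rpl3, Cps1 and Apoa2 had adjusted p = 0.797, 0.533, 0.0888 and 0.635 at 20%.

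Mitochondrially encoded genes had 7 positive interactions and 1 negative among 15 (median 0.21), and 7 positive and 4 negative with the length and GC trend removed (median 0.06). Their share of all counts was 7.17% to 7.28% in chow-fed controls, 7.24% to 7.50% in HFD-fed controls, 5.98% to 6.16% in KO on chow and 6.49% to 6.76% in KO on HFD. mt-Cytb, cytochrome b, was at 11560, 11530 and 11520 CPM in KO on chow and 14190 to 15170 elsewhere (interaction 0.37, SE 0.018, adjusted p = 3.35e-17), mt-Nd4, of complex I, had an interaction of 0.46, and mt-Rnr2, the large ribosomal RNA, was the negative one (interaction -0.69, SE 0.069, adjusted p = 1.06e-09). All 3 rest on the small spread (adjusted p = 0.938, 0.797 and 0.394 at 20%), where 1 of the 15 passed. These levels are shares of a library, so the part that a change of this large class plays in the levels of other genes was not tested beyond the scalings compared. Erythroid markers were positive in 7 of 11 tested and negative in none (median 0.65), with Hba-a1, alpha globin, at 25.4, 26.2 and 24.2 CPM in chow-fed controls and 9.47, 9.85 and 11.96 in HFD-fed controls. The knockouts had 46.2, 45.3 and 46.7 CPM on chow and 33.7, 29 and 27.4 on HFD (interaction 0.65, SE 0.11, adjusted p = 1.11e-05); globin genes have near-identical copies, and this call rests on the small spread, as does that of Hbb-bs, beta globin (0.50). In CPM both globins had the larger difference between KO and control on chow, at 20.8 against 19.6 for Hba-a1 and 35.2 against 24.6 for Hbb-bs. Car1, a carbonic anhydrase of red cells, was at 7.26, 7.27 and 7.19 CPM in chow-fed controls and 2.32 to 4.26 elsewhere (interaction 1.36, SE 0.21, adjusted p = 4.53e-06). Plasma cell and immunoglobulin genes were positive in 3 of 11, with Ighg2c, an immunoglobulin heavy chain, at 2.74, 2.85 and 2.53 CPM in chow-fed controls and 0.257, 0.990 and 0.861 in HFD-fed controls. KO livers had 6.99, 6.25 and 7.06 CPM on chow and 4.22, 4.78 and 4.47 on HFD (interaction 1.30, SE 0.31, adjusted p = 0.00131) and adjusted p = 0.0506 at 20%. The calls of Ighg2b, another heavy chain (1.250), and of Xbp1, a transcription factor of secretory cells that hepatocytes also express (0.17), rest on the small spread. In CPM the knockout difference of Ighg2c and Ighg2b was slightly larger on chow.

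Most of the remaining lists held interactions of both signs, where 15.2% of all tested genes were positive and 14.7% negative. Clock genes had 5 positive and 5 negative interactions among 25 (median -0.02, and 0.0029 without replicate 2 of chow-fed controls); Per1, a core repressor of the clock, was at 38.9, 36.6 and 38.3 CPM in chow-fed controls and 51.7 to 74.5 elsewhere (interaction -0.42, SE 0.073, adjusted p = 3.02e-05), and lost its call at 20%, as did Fmo5 (-0.22) and Noct, a clock-driven deadenylase (-0.35). Cholesterol synthesis genes had 6 positive and 7 negative of 25 (median -0.09, and 0.03 with the length and GC trend removed). The median over all tested genes was itself 0.066 with that trend removed, against -0.0037 in the main setting. Fdx1, which passes electrons to mitochondrial P450s, had an interaction of 0.96 and Ebp, a sterol isomerase, 0.39. Glutathione and NRF2 genes had 9 positive and 12 negative of 27 (median -0.07, and 0.04 with that trend removed), where the glutathione transferases Gsta3 and Gstt1 had KO on chow low (0.44 and 0.63). Gluconeogenesis and glucose handling genes had 10 positive and 7 negative of 24 (median 0.03). Sds, serine dehydratase, was at 144, 146 and 147 CPM in KO on chow and 79.8 to 91.8 elsewhere (interaction -0.67, SE 0.051, adjusted p = 1.92e-12), Gpt, alanine aminotransferase, had the opposite sign (0.48), and Igfbp1, an insulin-repressed binding protein, was at -0.55. These cholesterol, glutathione and glucose genes all rest on the small spread. Immediate early genes had 9 positive and 7 negative of 24 (median 0.04, and -0.06 or -0.04 without replicate 1 of KO on chow or replicate 2 of KO on HFD), with Ier2 low in HFD-fed controls (0.96, lost at 20%). Genes of the endoplasmic reticulum and integrated stress responses leaned negative, at 17 negative and 3 positive of 29 (median -0.17); Hspa5, the chaperone BiP, was at 1086, 1075 and 1074 CPM in KO on chow and 894 to 996 elsewhere (interaction -0.36, SE 0.028, adjusted p = 2.46e-12), a small difference that rests on the small spread, as does that of Herpud1, of the same response (-0.40). Hepatokines and genes of the growth hormone axis had 11 positive and 9 negative of 26 (median 0.15), where Rbp4, the retinol carrier, was at 3551, 3503 and 3555 CPM in KO on HFD and 2396 to 2873 elsewhere (interaction 0.57, SE 0.023, adjusted p = 1.12e-19) and lost its call at 20%. Adipocyte markers, another possible source of RNA, had 2 positive and 2 negative of 8 tested (median 0.04, and -0.05 to -0.02 without replicate 2 of HFD-fed controls, KO on chow or KO on HFD): Car3 (0.68) and Adrb3 (0.99), both lost at 20%, against Fabp4, a fatty acid binding protein that macrophages also make (-1.23), and Cidea, which just missed the threshold at 20% (adjusted p = 0.0507). T, NK and B cell markers had 1 positive and no negative interaction of 8, at a summed 5.283 to 11.53 CPM.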

How the data were processed

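RNA from whole mouse liver was measured in 12 libraries, with groups set by each sample's labelled genotype and diet. The deposited table holds raw read counts per Ensembl gene, which was read from the whole numbers in the deposited table; per the submitters' processing notes, Bowtie 0.12.2 and mm8 were used. The counter, annotation and handling of strand and multi-mapping reads were not given in the sources used here. Of 53465 gene IDs, 53274 were paired with a symbol by GENCODE, 26261 had no counts, and the IDs without a symbol held at most 0.0379% of a library. Within groups, the median chi-square of 12 pairs of libraries was 1.59 to 2.34 times its expectation, more than sampling noise, so none was counted with another.

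After filterByExpr in edgeR 4.0.16, 14778 genes remained, and TMM set the scale. A quasi-likelihood model of the 4 group means was fitted with all 12 libraries, with Benjamini-Hochberg adjustment over all tested genes. CPM are counts scaled by TMM library size, and effects are log2 values from the fit. The SE is the size of an effect divided by the square root of its F statistic. On simulated data with a known interaction (14778 genes), the share recovered of 50 genes each was 36% at 1.25-fold, 68% at 1.5-fold, 86% at 2-fold and 98% at 4-fold. Of 14578 genes left alone, 3 passed. The changes were placed in KO on HFD alone, with the fitted small spread, and in far fewer genes than passed in the data. These shares thus do not carry over to the data and say nothing of spread between animals. An earlier random draw gave higher shares at 1.5-fold and 2-fold and more false calls.

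The sorting rule, the 40 gene lists and the tests were chosen with earlier results of these data known. Named genes are Pld1, Pparg and Cd36, up to 4 with the largest interaction in each way a single group or a crossed pair stands apart (at least 5 CPM and no overlap), and up to 3 members of each list with the smallest interaction p; other list members, such as Hpx, Clec4f, Icam1, Mcm2, Bub1b, Ube2c, Cyp7a1, Cyp2b10 and Angptl8, were named after their values were seen. A gene that this rule names is not reported here. Replicate numbers were checked for pairing over 9430 genes: same-numbered libraries correlated at -0.11 to 0.10 and others at -0.077 to 0.075, so the numbers do not pair them. Alternatives were other filters, scalings and tests (DESeq2 1.42.0, limma 3.58.1), a replicate block, a fixed coefficient of variation, removal of a length and GC trend, and leaving out each library.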

Additional observations from a re-analysis of the deposited data

Results flagged for a closer look

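Weighed against the small spread of these libraries, the interaction passed its threshold in 4411 genes, and in 1622 at 1.5-fold. With a coefficient of variation fixed at 20%, 510 passed, and at 40%, 22 did. Of the 1622 genes, 104 changed at least 1.5-fold with the knockout on both diets, in opposite directions. Each of these effects passed an adjusted p of 0.05 (edgeR's quasi-likelihood test). Among the 141 named genes, 21 were of this kind. In 13 of them the knockout raised the level on chow and lowered it on HFD. Their log2 interactions were -3.64 for Ly6d, -3.49 for Ccdc120, -2.62 for Spp1, -2.48 for Dusp8, -2.44 for Col1a1, -2.38 for Mtmr11, -2.29 for Ifi27l2b, -2.06 for Fgf21, -1.94 for S100a11, -1.91 for Plin4, -1.53 for Col3a1, -1.38 for Cxcl9 and -1.20 for Col4a1. In the other 8 the knockout lowered the level on chow and raised it on HFD, with interactions of 1.28 for Afmid, 1.31 for Cyp2c29, 1.35 for P2ry1, 1.56 for Cyp2c37, 1.56 for Cela1, 1.88 for Hnf4aos, 2.06 for Igfbp2 and 2.56 for Cyp2c54. With a coefficient of variation fixed at 20% the interaction passed in all 21, and both knockout effects passed in 8 of them. The 21 were picked for large knockout effects in opposite directions, so the choice itself favours a large interaction. Their passing at 20% is thus no separate support.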

How the results depend on the processing

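The spread between libraries decides most calls, with 4411 genes passing in the main setting and 510 at a coefficient of variation fixed at 20%. Of the 139 called named genes, mostly chosen for a large interaction or a small p, 64 lost their call at 20%. At 40%, 132 of them did. Outside these fixed settings, 1 call of a named gene was lost in 20 settings (Cdh1, length and GC trend removed) and no called named gene changed sign on the log2 scale. In CPM the sign was opposite in 25 of the 1622 genes, and in 7 of the 139 called named genes (Serpina1e, Prtn3, Ngp, Hba-a1, Hbb-bs, Ighg2c and Ighg2b).

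With a coefficient of variation of 20%, 510 genes passed, all at 1.5-fold. Of these 70 had chow-fed controls apart, 92 HFD-fed controls, 120 KO on chow and 30 KO on HFD, while 51 were crossed, 139 graded, 8 paired by diet and 0 by genotype. The knockout effect passed in 33 on both diets in opposite directions, 13 in the same, 161 on HFD alone, 241 on chow alone and 62 on neither. The diet effect passed in 29 in both genotypes in opposite directions, 57 in the same, 200 in controls alone, 181 in KO alone and 43 in neither. At 40%, 22 passed, again all at 1.5-fold: 2 with chow-fed controls apart, 7 HFD-fed controls, 6 KO on chow, 1 KO on HFD, 2 crossed, 4 graded and 0 in each paired class. The knockout counts in the same order were 1, 0, 11, 7 and 3 and the diet counts 0, 2, 11, 8 and 1.

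Keeping only genes with a group mean of at least 5 CPM left 962 genes at 1.5-fold: 146 with chow-fed controls apart, 171 HFD-fed controls, 223 KO on chow, 50 KO on HFD, 95 crossed, 246 graded and 3 paired by genotype. The knockout effect passed on HFD alone in 167, on chow alone in 293 and on neither diet in 16, and the diet effect in controls alone in 230, in KO alone in 208 and in neither in 9. This filter removes genes by construction. Asking for a 2-fold interaction left 836. Without a count filter the diet effect passed in neither genotype in 123.

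Requiring a distance of over 2 times the range left 106, 114, 173 and 33 genes with chow-fed controls, HFD-fed controls, KO on chow and HFD-fed KO apart, and 985 graded. Sorting all 4411 genes gave 518, 902, 847 and 479, with 378 crossed, 1119 graded, 140 paired by diet and 28 by genotype, so at smaller sizes HFD-fed controls were the most frequent. On CPM without the log 20 were paired by diet. Genes paired by genotype numbered 3 with the length and GC trend removed and 4 to 8 when leaving out 1 library; the cause was not tested.

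Leaving out 1 library gave 3934 to 4184 calls, DESeq2's Wald test 3740, limma-voom 4325, no filter 4209 and removal of the length and GC trend 4702. The replicate block gave 4331, and 1600 at 1.5-fold. Recovery at 1.25-fold was 36% in simulated data. That simulation had far fewer changed genes, so it does not give the share of small interactions missed here.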

Other observations

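The classes differed in what kinds of genes they held. Of the 310 genes high in KO on chow 96.13% were protein coding, against 64.79% of the 71 genes low in that group and 86.23% of all tested genes. The median highest level was 24.11 CPM in the 120 genes low in HFD-fed controls, 5.926 CPM in the genes high in KO on chow and 13.53 CPM over all tested genes.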
